A study of Mus musculus with 23 samples.

Results

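The genes described are the nuclear-encoded subunits of the mitochondrial respiratory chain and of ATP synthase, with the assembly factors of Complex I that carry the same symbol stem. They were taken by symbol: every gene with a single symbol that begins with Nduf, Uqcr, Cox4 to Cox8 or Atp5, together with Sdha, Sdhb, Sdhc and Sdhd. The rule found 90 of the 18193 genes with a single symbol on the array. They comprised 34 subunits of Complex I, 8 Complex I assembly factors, the 4 subunits of Complex II, 8 genes of Complex III, 11 widely expressed genes counted with Complex IV (Ndufa4 and Cox7a2l among them), 8 restricted isoforms of Complex IV and 17 genes of ATP synthase. Where a gene has several probe sets, the one with the strongest average signal stands for it.

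RNA was measured on 23 mouse expression arrays, 1 for each clonal preadipocyte line. All lines came from the stromal cells of subcutaneous (SCF, 12 lines) and perigonadal (PGF, 11 lines) fat of 1 male Immortomouse aged 8 weeks. The Immortomouse carries a temperature-sensitive SV40 large T antigen that is induced by interferon gamma, so that cells divide in culture at reduced temperature. Every line was founded by 1 of 190 single cells sorted after 2 passages. Cultures were kept at 33 °C, with interferon gamma at 10 units/mL. No line was given another treatment that the labels name. The submitters clustered the expression data into Type 1 (3 lines, all PGF), Type 2 (5 lines, 4 SCF and 1 PGF), Type 3 (8 lines, 4 of each depot) and Other (7 lines, 4 SCF and 3 PGF). Since all lines are clones of 1 mouse, p-values measure the spread between clones, and since the groups were formed on expression, p-values between groups describe them and are not independent evidence that they differ. The labels also score each line from 1 to 4 for differentiation and for acidification of its medium. They do not say which end of the acidification scale is the more acid, nor whether RNA was taken before or after differentiation.

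The respiratory chain passes electrons from NADH (at Complex I) and succinate (at Complex II) through ubiquinone, Complex III and cytochrome c to oxygen at Complex IV. Complexes I, III and IV pump protons, and ATP synthase uses the returning protons to make ATP. In white fat the chain supplies ATP and cofactors for lipid synthesis, and in brown fat uncoupling protein lets the proton gradient give heat. A cell that makes more ATP by glycolysis releases more lactate and acid into its medium, which is why the acidification score was set beside these genes. Some subunits of the chain are encoded by mitochondrial DNA, and 0 genes with such symbols were among those on the array.

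Promoter sequences of 74 of the 90 genes were found in RefSeq (GRCm38.p6). Nuclear respiratory factor 1 (NRF1), the ETS-family factor GABP and YY1 are known regulators of respiratory genes. Their core motifs were searched on both strands from 250 bases before to 50 bases after the start, a window of 300 bases. The NRF1 motif, GCGCA followed by its reverse complement TGCGC, was present in 6 of 74 (8.11%), against 231 of 17492 (1.32%) of all coding gene promoters in the table. The ETS core CCGGAAG was present in 18 (24.3%), against 11.9% of all. The YY1 motif AAGATGGCG was present in 6 (8.11%), against 1.94% of all. The ETS core ends and the YY1 motif begins with AAG, so that matches to both can share letters, and a match is a stretch of letters, not a shown binding site. The 250 bases before the start are given for a widely expressed oxidase subunit with an NRF1 and an ETS match (Cox6a1), for an ATP synthase subunit with an ETS match that was lower in Type 1 (Atp5e), and for the 2 isoforms with the widest spread over lines (Cox7a1 and Cox6b2). Capitals mark motif matches, which read CTTCCGG where the ETS core lies on the other strand. These letters hold none of the 3 motifs for Cox7a1 and Cox6b2.

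Cox6a1 promoter, GRCm38.p6 chr5:115348959-115349208, minus strand: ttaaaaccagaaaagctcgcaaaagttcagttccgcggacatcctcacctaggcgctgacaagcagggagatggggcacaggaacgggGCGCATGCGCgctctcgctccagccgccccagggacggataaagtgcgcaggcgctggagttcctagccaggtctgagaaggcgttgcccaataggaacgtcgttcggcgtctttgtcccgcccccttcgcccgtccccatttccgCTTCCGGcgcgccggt
Atp5e promoter, GRCm38.p6 chr2:174464102-174464351, minus strand: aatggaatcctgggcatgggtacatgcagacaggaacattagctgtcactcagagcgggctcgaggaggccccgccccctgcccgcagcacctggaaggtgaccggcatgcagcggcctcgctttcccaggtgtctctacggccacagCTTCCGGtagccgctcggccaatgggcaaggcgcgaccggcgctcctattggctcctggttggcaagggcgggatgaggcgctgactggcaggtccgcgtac
Cox7a1 promoter, GRCm38.p6 chr7:30183921-30184170, plus strand: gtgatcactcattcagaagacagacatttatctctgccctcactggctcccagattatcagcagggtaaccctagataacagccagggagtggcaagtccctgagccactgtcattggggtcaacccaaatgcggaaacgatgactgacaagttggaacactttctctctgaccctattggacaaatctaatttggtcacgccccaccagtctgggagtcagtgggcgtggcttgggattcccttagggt
Cox6b2 promoter, GRCm38.p6 chr7:4753095-4753344, minus strand: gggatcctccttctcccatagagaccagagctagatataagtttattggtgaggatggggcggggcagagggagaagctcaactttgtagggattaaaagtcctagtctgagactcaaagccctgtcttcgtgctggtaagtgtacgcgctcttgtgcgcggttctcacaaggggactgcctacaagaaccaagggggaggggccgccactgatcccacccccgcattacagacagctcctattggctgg

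Of the 90 genes, 86 passed the filter for testing, which asked for a log2 signal above the median of the whole table, 5.131, in at least 3 lines. The 4 that did not were the isoforms Cox4i2, Cox7b2 and Cox8b, and Ndufb4. The tested genes varied little. The median standard deviation over the 23 lines was 0.158 on the log2 scale, against 0.243 over all 12307 genes tested, and 78 of 86 lay below that median. The same order held at high signal: among genes with a mean log2 signal above 10, the median was 0.158 for 68 members and 0.228 for 1669 genes. From the lowest to the highest line, 78 of 86 members spanned at most 1 log2 unit, with a median span of 0.64. The steadiest were Ndufs4, a subunit of the electron-input arm of Complex I (SD 0.0942), and Cox5b, a nuclear-encoded oxidase subunit (SD 0.0953). Cox5b lay between 12.76 and 13.14 in every line. Of the members with the strongest average signal of their complex, Ndufa3 (Complex I) lay between 11.58 and 12.32, Sdhb (Complex II) between 10.86 and 11.39 and Uqcrb (Complex III) between 13.01 and 13.55. Cox6a1 lay between 13.20 and 13.71, the restricted isoform Cox8c between 6.97 and 7.65, Atp5g3 between 12.68 and 13.11 and the assembly factor Ndufaf8 between 9.15 and 9.69. The widest span of these was that of Ndufa3, 0.74.

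Members of most complexes deviated together, but weakly. Averaged over pairs of genes, Pearson's r across the 23 lines was 0.165 for the members and 0.008 for all genes tested, and 0.202 and 0.008 over the 20 lines outside Type 1. By complex it was 0.211 for Complex I, 0.227 for its assembly factors, 0.067 for Complex II, 0.256 for Complex III, 0.156 for Complex IV, -0.053 for the restricted isoforms and 0.22 for ATP synthase. Genes of the mitochondrial ribosome gave 0.315 and those of the TCA cycle 0.246. These are descriptions, since all genes of a line share 1 array and its RNA.

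**Figure D1:**
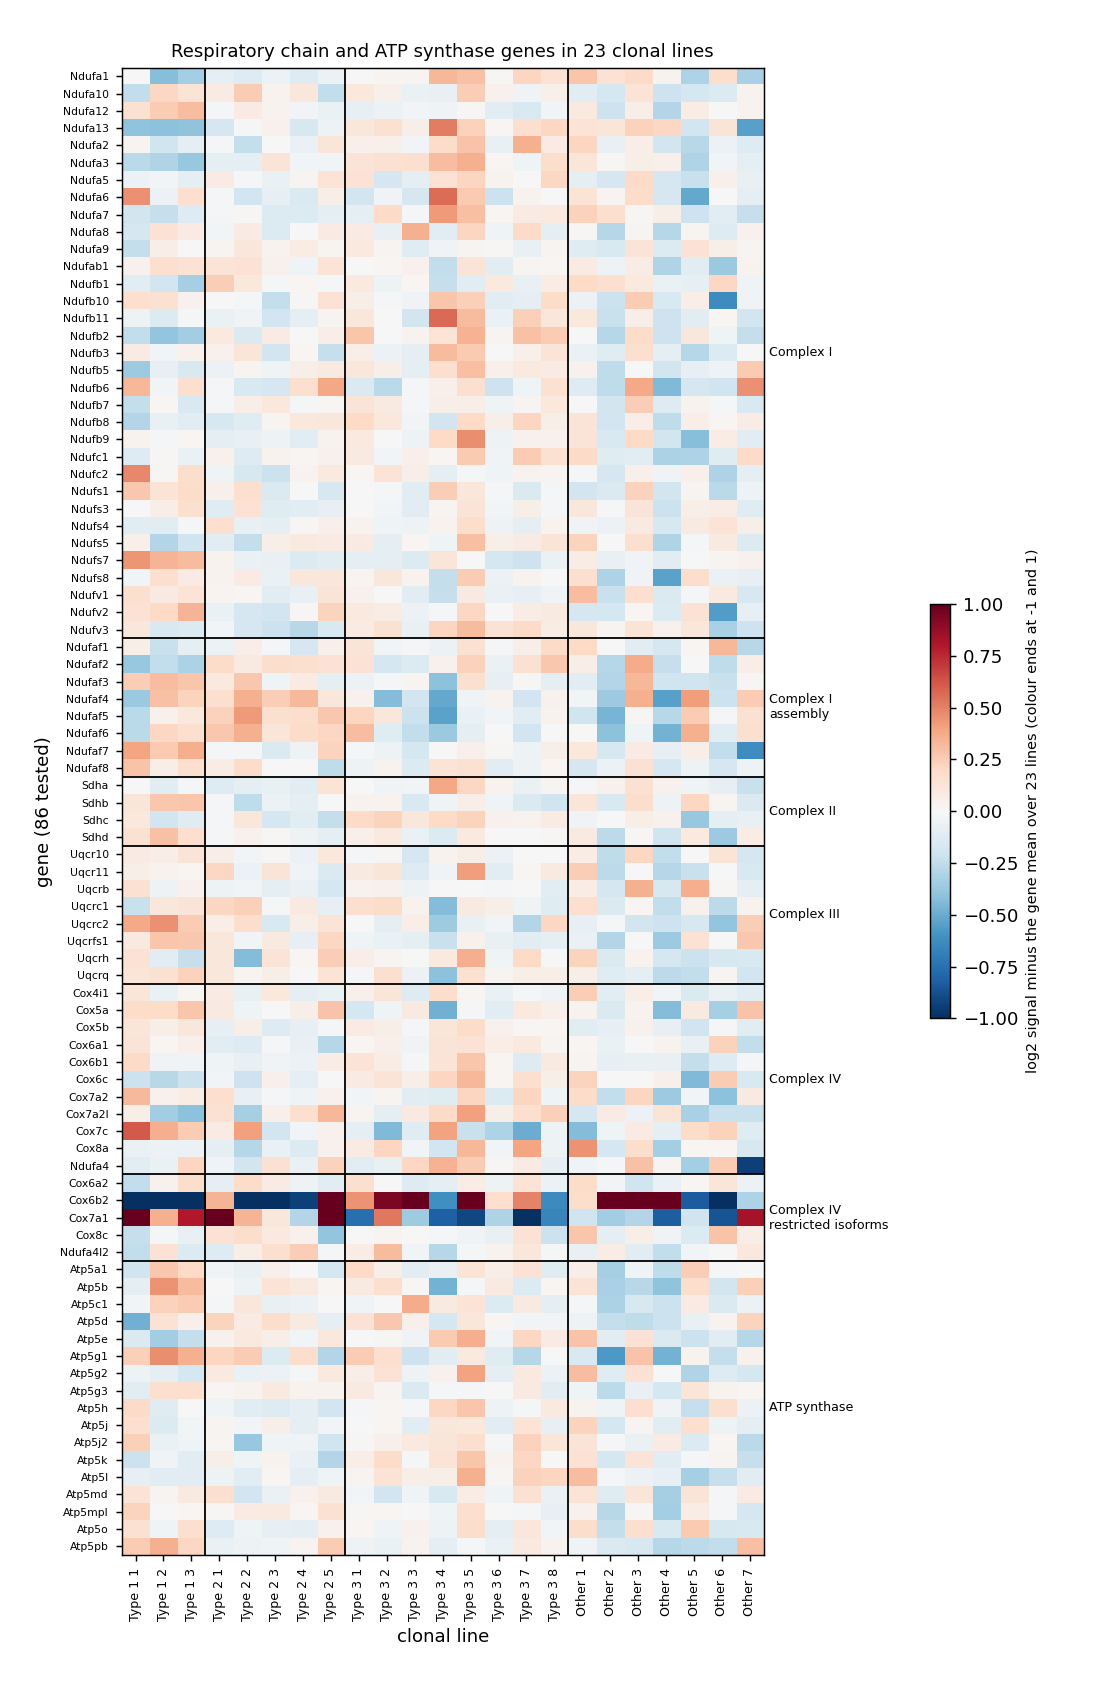
Log2 signal of the 86 tested members (rows, by complex) in the 23 lines (columns, by group), each gene shown as its difference from its own mean over the lines. Most cells are pale, with the strongest colours in the rows of Cox6b2 and Cox7a1, and the line labelled Type 3 5 is mostly red.

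Of the fibroblast genes, Col1a1, Col1a2, Pdgfra, Pdgfrb and Vim were above the table median in all 23 lines, Thy1 in 20 and Cd34 in 18. The mean of these genes per line was 10.57 to 10.84 in Type 1, within the 9.39 to 11.93 of the other lines. That mean covers genes that differed in opposite directions. Against the mean of Types 2 and 3, Cd34 was higher in Type 1 (3.3, adjusted p 0.0317, limma). Pdgfrb (-2.46, adjusted p 4.57e-08) and Vim (-0.71, adjusted p 2.32e-05, limma) were lower. Pdgfrb was 8.82 to 9.11 in Type 1 and 10.51 to 12.27 in the other lines. Of the leukocyte and macrophage genes, Ptprc, Adgre1 and Itgam were above it in 0 lines, Cd68 in 20 and Csf1r in 23. Of the endothelial genes, Pecam1 and Cdh5 were above it in 0 lines, Tek in 17 and Kdr in 23, and of the muscle genes, Myod1 in 0 and Ckm, Acta1 and Des in 23. Of the mature adipocyte markers, Adipoq was above it in 1 line, Cidec and Lep in 0, Fabp4 in 19 and Pparg in 21. In Type 1, Fabp4 was 3.01 to 4.38 and Pparg 4.17 to 5.73, against 4.74 to 10.69 and 5.64 to 9.20 in the other lines. The mean of the 7 mesothelial markers per line was 9.6 to 11.29 in Type 1, against 3.91 to 5.42 in the other 20 lines. These 3 lines thus carry mesothelial markers that the preadipocyte label does not name. Krt8 was as low as 5.17 in 1 Type 1 line, within the range of the Other lines (4.65 to 5.18). Type 1 line 1 also stood apart in RNA quality, with a 3' minus 5' difference of the actin control probe sets of 1.579, against 0.527 to 1.004 in the other lines.

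The first comparison asked whether the chain differed between Type 1 and the mean of Types 2 and 3. Individual subunits rose and others fell, with no common direction. Of 86 members, 18 passed at an adjusted p below 0.05 (limma, Benjamini-Hochberg over 12307 genes), or 20.9%, against 32.8% of all genes tested. Of them, 9 were higher (18.2% of all genes tested were) and 9 lower (14.6% of all genes tested were). The median difference of the members was 0.004 and that of all genes tested 0.01. The median size of the difference, without its sign, was 0.129 for members and 0.241 for all genes. Among the 9 that rose, 3 belong to Complex I, with 1 each in its assembly factors, Complex II, Complex III, Complex IV, the restricted isoforms and ATP synthase. Among the 9 that fell, 5 belong to Complex I, 1 to its assembly factors, 2 to Complex IV and 1 to ATP synthase.

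In Complex I, 3 of 33 tested subunits rose and 5 fell. Ndufs7, the core subunit that holds the last iron-sulfur cluster before ubiquinone, had log2 signals of 10.87, 10.77 and 10.74 in the Type 1 lines, 10.29 to 10.46 in Type 2 (median 10.35), 10.22 to 10.55 in Type 3 (median 10.33), while the Other lines ran from 10.31 to 10.50 (median 10.42). All 3 Type 1 lines lay above every other line. The difference was 0.44 ± 0.07 (SE; 1.36-fold; adjusted p 2.63e-05, limma). Ndufa12, an accessory subunit of the peripheral arm, was 11.98, 12.08 and 12.13 in Type 1 and at most 11.92 in the other lines (difference 0.27 ± 0.07, adjusted p 0.00781, limma). Its other probe sets gave 0.26, 0.28 and 0.08, and the last did not pass (adjusted p 0.811, limma). Ndufc2, an accessory subunit of the membrane arm, differed by 0.24 ± 0.09 (adjusted p 0.0408, limma). Without Type 1 line 1 this was 0.12 (adjusted p 0.416, limma), and averaging its probe sets gave 0.10 (adjusted p 0.262, limma).

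The 5 Complex I genes that fell were Ndufa13, Ndufa3, Ndufb1, Ndufb2 and Ndufb5. All are accessory subunits, as are most of the tested subunits of Complex I. A difference between core and accessory subunits was not tested. Ndufa13, also known as GRIM-19, was 11.51, 11.50 and 11.51 in Type 1. Type 2 lay at 11.74 to 11.95 and Type 3 at 11.93 to 12.42. The Type 1 lines lay below every line of Types 2 and 3, while the Other lines ran from 11.37 to 12.14 and overlapped them. The difference was -0.46 ± 0.12 (adjusted p 0.00557, limma). Ndufb2 was 9.90, 9.75 and 9.80 in Type 1. Type 2 lay at 10.00 to 10.24, Type 3 at 10.15 to 10.49 and Other at 9.86 to 10.33 (difference -0.43 ± 0.10, adjusted p 0.00163, limma). Ndufa3 was 11.69, 11.66 and 11.58 in Type 1, with Type 2 at 11.86 to 12.09 and Type 3 at 11.92 to 12.32 (difference -0.39 ± 0.09, adjusted p 0.00136, limma). For Ndufb2 and Ndufa3, too, the Type 1 lines lay below every line of Types 2 and 3. This also held for Ndufaf2, Cox6c and Atp5e, which are described below. The share of all genes tested that separate in this way was not counted. Ndufb5 (-0.25 ± 0.09) and Ndufb1 (-0.24 ± 0.08) fell by less. Each of Ndufc2, Ndufb2 and Ndufa3 has 1 probe set with the opposite sign that did not pass: -0.25, 0.04 and 0.23.

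The Complex I assembly factors included a gene in each direction. Ndufaf2 is a paralogue of Ndufa12 that occupies its place until assembly is nearly complete. It was 7.66, 7.79 and 7.72 in Type 1, with Type 2 at 8.13 to 8.22, Type 3 at 7.86 to 8.31 and Other at 7.75 to 8.41 (difference -0.42 ± 0.11, adjusted p 0.00612, limma). Ndufa12 rose and Ndufaf2 fell in these lines, and a link between them was not tested. Ndufaf7, a methyltransferase that modifies a core subunit, was 8.17, 8.04 and 8.14 in Type 1 and at most 8.00 elsewhere (difference 0.35 ± 0.11, adjusted p 0.0165, limma).

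In Complex II, which is also succinate dehydrogenase of the TCA cycle, Sdhb rose. Sdhb, the iron-sulfur subunit, was 11.23, 11.38 and 11.39 in Type 1, with Type 2 at 10.86 to 11.11, Type 3 at 10.91 to 11.18 and Other at 10.96 to 11.32 (difference 0.29 ± 0.08, adjusted p 0.00982, limma). The membrane anchor Sdhd was 10.61, 10.75 and 10.63 in Type 1 and at most 10.56 elsewhere, yet did not pass (0.21 ± 0.09, adjusted p 0.0615, limma). The flavoprotein Sdha (-0.05 ± 0.09) and the other anchor Sdhc (-0.09 ± 0.09) did not pass. In Complex III, Uqcrc2, one of the large core proteins, was 11.22, 11.30 and 11.10 in Type 1 and at most 11.09 elsewhere (difference 0.37 ± 0.11, adjusted p 0.0134, limma). In all, 5 of 86 members (5.81%) lay above the 20 other lines in all 3 Type 1 lines, against 7.86% of all genes tested. None of the 86 lay below them in all 3, against 5.89%.

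In Complex IV, Cox7c rose and Cox7a2l and Cox6c fell. Cox7c, a small structural subunit, was 6.69, 6.44 and 6.33 in Type 1, with Type 2 at 5.89 to 6.49 and Type 3 at 5.58 to 6.48, so that the groups overlapped (difference 0.46 ± 0.15, adjusted p 0.0248, limma). Its signal was low: it averaged 6.08 over the lines, while the other widely expressed genes of Complex IV averaged 10.64 to 13.48. Cox7a2l, which joins Complexes III and IV in supercomplexes, was 10.71, 10.29 and 10.23 in Type 1 and 10.31 to 11.05 in Types 2 and 3 (difference -0.33 ± 0.13, adjusted p 0.0445, limma). Cox6c differed by -0.28 ± 0.10 (adjusted p 0.042, limma). The widely expressed partners of the restricted isoforms did not pass: Cox4i1 (0.02 ± 0.08), Cox6a1 (0.09 ± 0.07), Cox6b1 (0.02 ± 0.08), Cox7a2 (0.14 ± 0.12), Cox8a (-0.06 ± 0.13) and Ndufa4 (-0.04 ± 0.17).

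In ATP synthase, Atp5pb rose and Atp5e fell. Atp5pb, a subunit of the peripheral stalk, was 12.36, 12.46 and 12.31 in Type 1 (difference 0.27 ± 0.09, adjusted p 0.0317, limma). Values of 12.36 in Type 2 line 5 and 12.40 in Other line 7 overlapped these. Its call was lost without any one of Type 1 lines 1, 2 and 3 (adjusted p 0.0878, 0.141 and 0.0547, limma). Atp5e, the epsilon subunit of the central stalk, whose promoter is shown above, was 10.73, 10.53 and 10.64 in Type 1. Type 2 lay at 10.85 to 10.98 and Type 3 at 10.84 to 11.24. The Type 1 lines lay below every line of those types (difference -0.33 ± 0.10, adjusted p 0.017, limma). The genes Atp5g1, Atp5g2 and Atp5g3, which encode the same mature ring subunit c, did not pass (0.34 ± 0.15, -0.15 ± 0.10 and 0.06 ± 0.08). With depot in the model the calls of Atp5pb (adjusted p 0.154, limma) and Atp5e (adjusted p 0.0571, limma) were lost, and that of Atp5e was also lost without Type 1 line 2 (adjusted p 0.0968) or line 3 (adjusted p 0.0566).

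**Figure D2:**
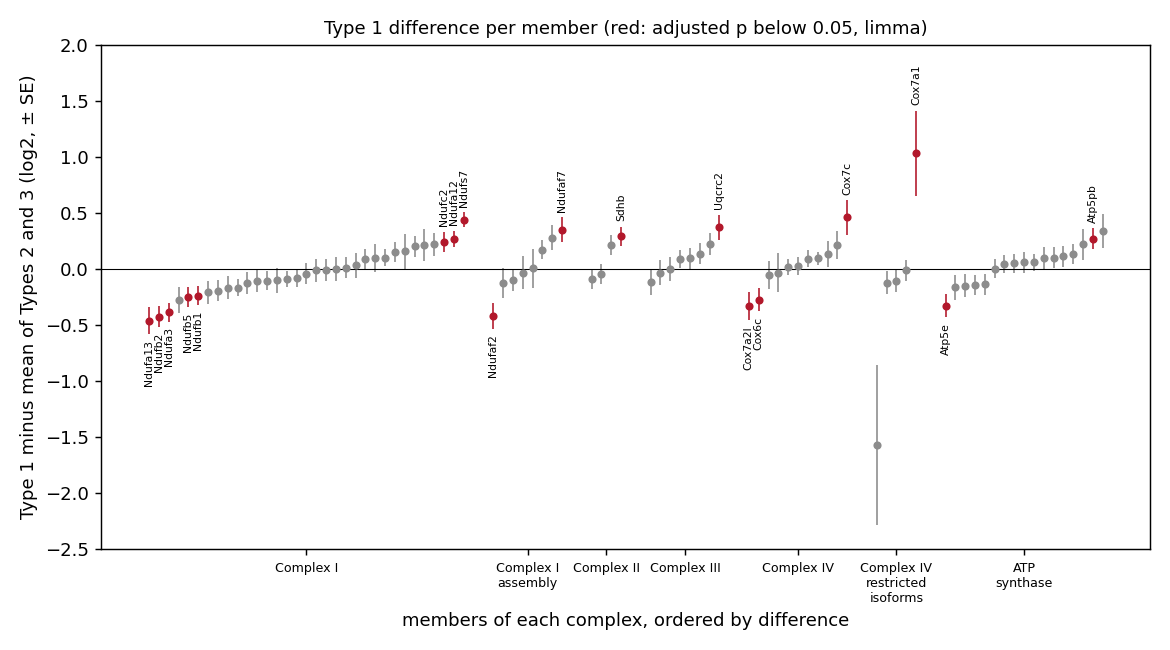
Difference between Type 1 and the mean of Types 2 and 3 (log2, vertical axis, bars 1 SE) for each tested member, grouped by complex and ordered by size. The 18 named red points passed at an adjusted p below 0.05, and 9 of them lie on each side of 0.

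Beside these results, Type 1 is all PGF, the mean of its mesothelial markers is high in all 3 lines, and line 1 has the high actin ratio. The part of these in the differences was not tested. With depot in the model, 12 members passed (6 higher and 6 lower). Without Type 1 line 1 the count was 11, without line 2 it was 11, and without line 3 it was 7. Without line 1, Cox7a1, Cox7c, Uqcrc2, Ndufaf7, Atp5pb, Ndufc2, Cox6c and Ndufb5 did not pass. Without line 2 this held for Cox7c, Uqcrc2, Sdhb, Atp5pb, Cox7a2l, Atp5e, Cox6c and Ndufb1. Without line 3 it held for Cox7a1, Ndufaf7, Sdhb, Atp5pb, Ndufa12, Ndufc2, Cox7a2l, Atp5e, Cox6c, Ndufb5 and Ndufb1. Ndufs7, Ndufa13, Ndufb2, Ndufaf2 and Ndufa3 passed under the 32 alternative settings run on 1 value per gene. Fitted on its own, 1 other probe set each of Ndufb2 (0.04, adjusted p 0.862, limma) and Ndufa3 (0.23, adjusted p 0.291, limma) had the opposite sign. Cox7a1 did not pass in 12 of the 32, Cox7a2l in 16, Cox6c in 14 and Ndufc2 in 10. Centring the arrays on their medians gave 10 higher and 5 lower.

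The restricted isoforms of Complex IV are known from heart and skeletal muscle (Cox6a2, Cox7a1 and Cox8b, the latter 2 also from brown fat), lung (Cox4i2) and testis (Cox6b2, Cox7b2 and Cox8c). Ndufa4l2 is known as a hypoxia-induced relative of Ndufa4. Of these, 2 varied over lines far more than the other members. Cox6b2 spanned 5.03 to 9.65 on the log2 scale over the 23 lines. Cox7a1 spanned 3.77 to 6.79, and it was above the table median in 6 of the 23, so that no fold is given for it.

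Cox6b2 signals were 6.21, 5.53 and 5.38 in Type 1 and 7.57, 5.03, 5.88, 6.30 and 8.99 in Type 2. They ran from 6.59 to 9.65 in Type 3 (median 7.70) and from 5.92 to 9.22 in Other (median 7.41). The Type 1 lines were low, and every group but Type 1 held lines more than 2 log2 units apart. Type 1 differed from the mean of Types 2 and 3 by -1.57 ± 0.71, which did not pass (adjusted p 0.0979, limma). Ordered by mean, the groups were Type 3 (7.79 ± 1.00, SD, n = 8), Other (7.58 ± 1.25, n = 7), Type 2 (6.75 ± 1.55, n = 5) and Type 1 (5.71 ± 0.44, n = 3). Neighbouring means lay closer than the larger SD of each pair. The means of Types 1 and 2 were further apart than the SD of Type 1.

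Cox7a1 signals were 6.79, 5.11 and 5.56 in Type 1, 6.18, 5.10, 4.87, 4.46 and 6.14 in Type 2, 3.77 to 5.28 in Type 3 (median 4.05) and 3.89 to 5.59 in Other (median 4.46). The highest were Type 1 line 1 and 2 lines of Type 2, and the groups overlapped. Type 1 differed from the mean of Types 2 and 3 by 1.03 ± 0.38 (adjusted p 0.0425, limma). Without Type 1 line 1 the difference was 0.54 and the call was lost (adjusted p 0.387, limma). Type 2 was above Type 3 by 1.13 ± 0.34, which did not pass (adjusted p 0.114, limma). Most signals of Type 3 and Other lay below the table median, so the low end is near background.

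The other isoforms varied less over the lines. Cox6a2 group means lay at 6.38 to 6.39, Cox8c at 7.26 to 7.42 and Ndufa4l2 at 5.92 to 6.06. Cox4i2 lay at 4.49 to 4.63, Cox8b at 4.62 to 4.65 and Cox7b2 at 2.80 to 3.32, all below the table median. Cox7b2, which was not tested, was the least even of these, at 2.52 to 3.65 over the lines.

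**Figure D3:**
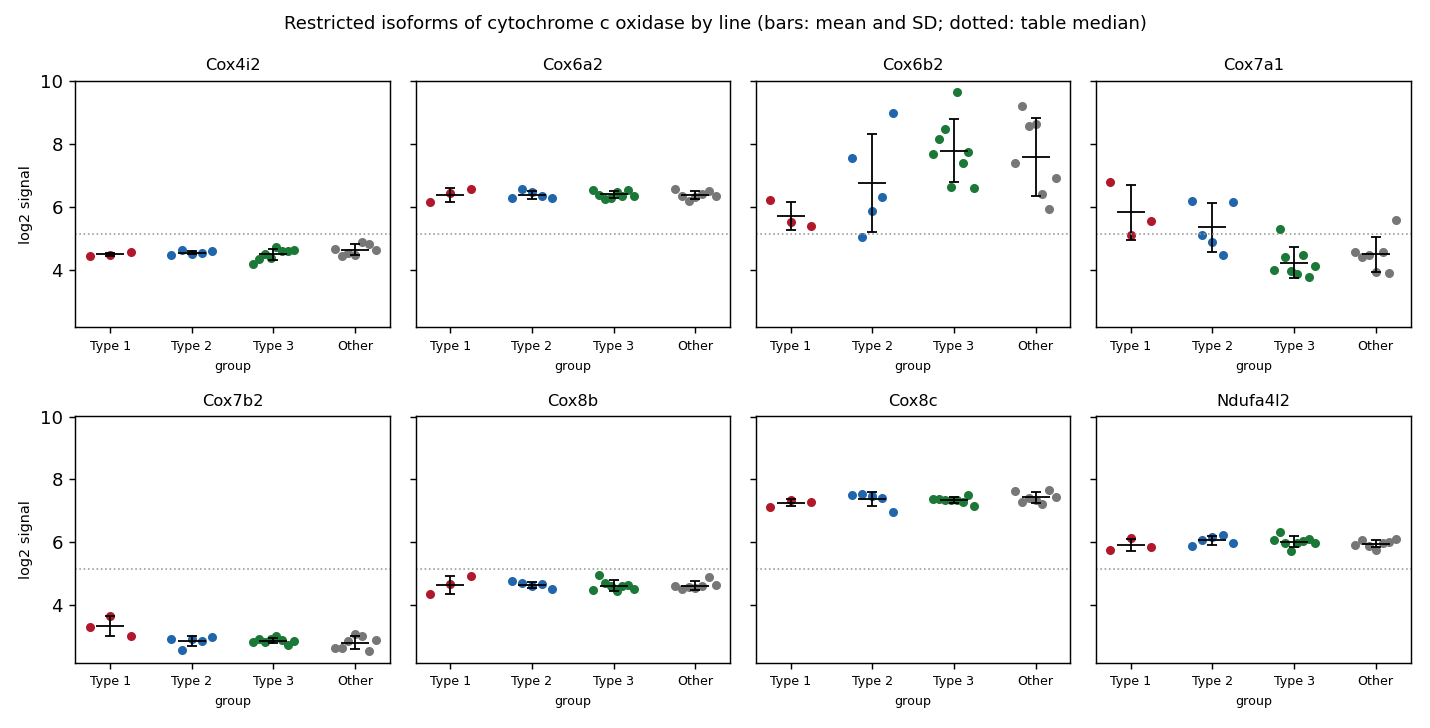
Log2 signal of the 8 restricted isoforms in each line (points), by group (horizontal axis), with the group mean and SD as bars and the table median, 5.131, dotted. Cox6b2 and Cox7a1 spread over several log2 units within and between groups, while the other 6 isoforms spread less.

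The second comparison asked whether the chain differed between Types 2 and 3. In limma, 0 of 86 members passed, against 0.382% of all genes tested, and 16 had an unadjusted p below 0.05. That is 18.6% of members, beside 17.6% of all genes tested. A negative difference was seen in 52 of 86 members (60.5%), beside 51.8% of all genes tested. By complex, this held for 23 of 33 tested Complex I subunits, 2 of 8 assembly factors and 4 of 4 genes of Complex II. It held for 3 of 8 in Complex III, 8 of 11 in Complex IV, 2 of 5 restricted isoforms and 10 of 17 in ATP synthase. Whether these shares differ was not tested. The smallest p-values in each direction belonged to Cox7a1, given above, Ndufaf5 (an assembly factor that hydroxylates Ndufs7; 0.33 ± 0.12, adjusted p 0.175, limma), Ndufv3 and Sdhc. Ndufv3, an accessory subunit of the NADH-oxidising tip, was 11.20, 11.06, 11.01, 10.95 and 11.07 in Type 2 and 11.15 to 11.54 in Type 3. The difference was -0.31 ± 0.08 (adjusted p 0.0908, limma). Over the 16 lines of the numbered types alone its adjusted p was 0.0295 (limma), and it was then the 1 member that passed. Sdhc differed by -0.22 ± 0.08 (adjusted p 0.153, limma), and Type 2 lay at 9.15 to 9.50, Type 3 at 9.42 to 9.61.

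The third comparison set the Other lines against the mean of the 3 types, which share Types 1 to 3 with the comparisons above. In limma, 0 of 86 members passed, against 5.73% of all genes tested, and 16 had an unadjusted p below 0.05 (18.6%, beside 20.3% of all genes). The members leaned low: 68 of 86 differences (79.1%) were negative, against 53.0% of all genes tested, with medians of -0.077 and -0.011. The lean was seen in 24 of 33 Complex I subunits, 7 of 8 assembly factors, 4 of 4 in Complex II, 7 of 8 in Complex III, 9 of 11 in Complex IV and 15 of 17 in ATP synthase. It was not seen in the restricted isoforms, of which 2 of 5 were negative. Without the 3 Type 1 lines, 69 of 86 members were negative, with a median of -0.075. The share over all genes in that fit is not given here, so this count has no background beside it. With all lines, some lists of genes outside the chain leaned the same way, and the glycolysis list did not. Negative differences were seen in 64 of 76 mitochondrial ribosomal genes (median -0.076) and 16 of 17 TCA cycle genes (median -0.075). They were seen in 21 of 34 electron carriers and assembly factors outside the symbol rule (median -0.058). Of 20 glycolysis genes, 7 were negative and 13 positive (median 0.051). Whether these shares differ was not tested. The smallest p-values were those of Atp5pb (-0.21 ± 0.07, adjusted p 0.0683, limma) and Ndufv2, the core subunit beside the NADH site (-0.22 ± 0.08, adjusted p 0.0911, limma). In the other direction they were those of Ndufb1 (0.12 ± 0.06, adjusted p 0.254, limma) and Cox6b2 (0.83 ± 0.52, adjusted p 0.39, limma). For Atp5pb, Other line 7 was at 12.40 while the other 6 lines ran from 11.82 to 12.07. Without that line the difference was -0.28 and the adjusted p 0.00194 (limma).

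A score per complex, the mean over its tested members of the log2 signal minus each gene's mean over all lines, describes each line. Complex III ran from 0.102 to 0.117 over the Type 1 lines and from -0.017 to 0.104 over Type 2. It ran from -0.166 to 0.128 over Type 3 and from -0.240 to 0.086 over Other. Complex II was 0.066 to 0.092 in Type 1 and -0.091 to -0.048 in Type 2. It was -0.042 to 0.148 in Type 3 and -0.124 to 0.100 in Other. Of its 4 genes, 2 had a positive and 2 a negative difference in the Type 1 comparison. ATP synthase averaged 0.049 ± 0.032 (SD, n = 3) in Type 1, -0.006 ± 0.025 (n = 5) in Type 2, 0.037 ± 0.064 (n = 8) in Type 3 and -0.060 ± 0.108 (n = 7) in Other. Complex I averaged -0.018, -0.016, 0.055 and -0.044 in the same order. The Other lines were not uniformly low: over all members, Other lines 4, 2 and 6 were at -0.160, -0.118 and -0.089, and Other lines 3 and 1 at 0.085 and 0.061. Type 3 line 5 was the highest of all lines at 0.175. No test was made on these scores. In these bulk RNA samples, fewer cells with a high level and less RNA per cell cannot be told apart.

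**Figure D4:**
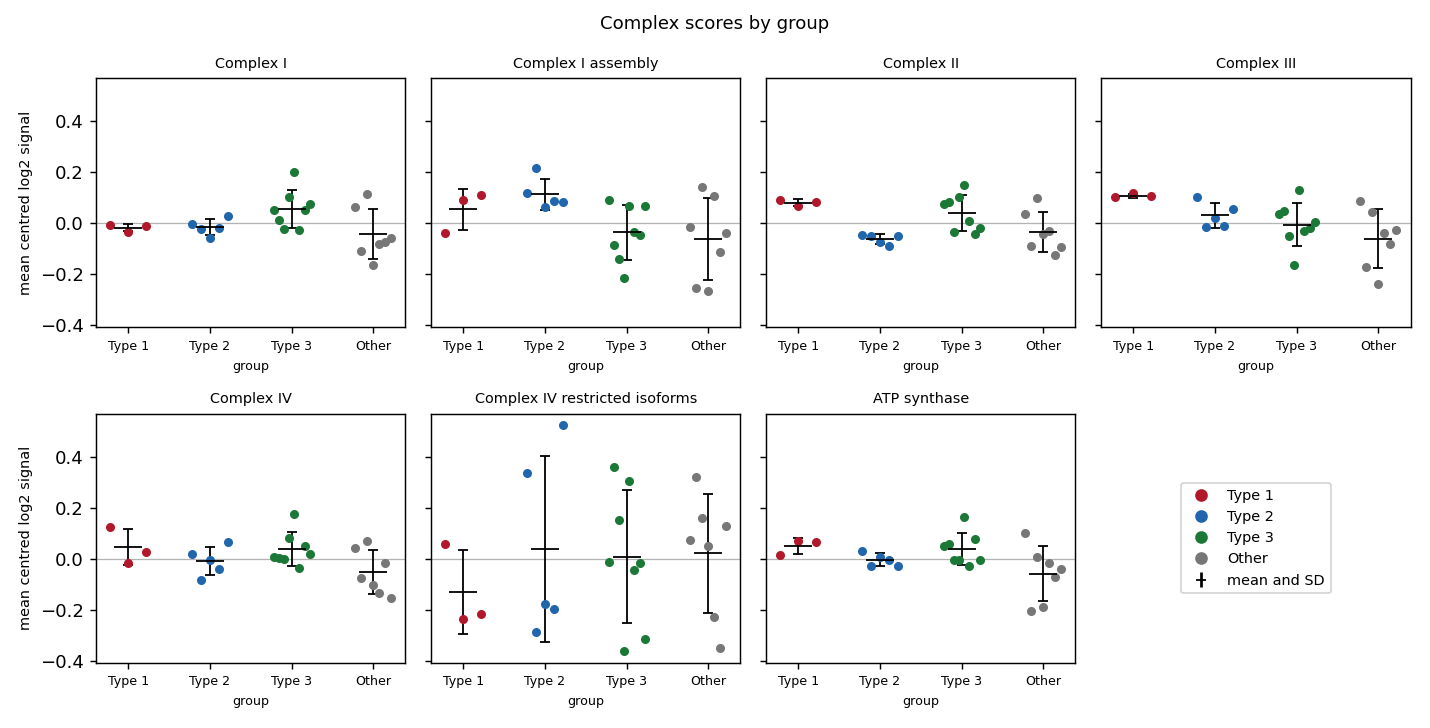
Complex scores (vertical axis, mean centred log2 signal over tested members) of each line by group, with group mean and SD. Type 1 lines lie close together in Complexes II and III, and the lowest line is an Other line in every panel but that of the restricted isoforms.

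The fourth comparison asked whether the chain follows the media acidification score. The score was spread unevenly over groups: 5 of 7 Other lines had score 1, 5 of 8 Type 3 lines score 3, and 3 of 5 Type 2 and 2 of 3 Type 1 lines score 4. No member followed the score past the threshold. In limma, 0 of 86 members passed (0.0% of all genes tested did), and 0 of 86 had an unadjusted p below 0.05, beside 5.28% of all genes tested. The median slope was -0.001 log2 per score point for the members and -0.001 for all genes. For 84 of 86 members the 95% interval of the slope lay within ±0.2 log2 per point, with a median half-width of 0.057. The exceptions were Cox6b2 (-0.29, interval -0.72 to 0.14) and Cox7a1 (0.02, interval -0.26 to 0.30). From score 1 to score 4, a slope at that bound would cover most of the members' median span over the lines, 0.64. The count of intervals within it therefore does not show that a trend is absent.

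The smallest p-values in each direction were those of Cox7c (0.09 ± 0.05 per point) and Atp5g1 (0.07 ± 0.04), and of Cox8a (-0.06 ± 0.03) and Cox5a (-0.06 ± 0.03). Each had an adjusted p of 0.895 (limma). Cox8a, the widely expressed form of the smallest oxidase subunit, averaged 11.48 ± 0.25 (SD, n = 7) at score 1, 11.32 ± 0.01 (n = 3) at score 2, 11.44 ± 0.21 (n = 5) at score 3 and 11.27 ± 0.14 (n = 8) at score 4. Cox7c averaged 5.97 ± 0.26, 6.08 ± 0.23, 5.94 ± 0.32 and 6.26 ± 0.26 at the same scores. Neither moved evenly from score to score, and the lines at neighbouring scores overlapped. The Complex I score averaged 0.001, 0.001, 0.053 and -0.034 at scores 1 to 4, with SDs of 0.084, 0.069, 0.098 and 0.063. Complex IV averaged -0.020, 0.013, 0.044 and -0.015, and ATP synthase -0.016, 0.022, 0.035 and -0.017. With group in the model, 0 members passed and 7 had an unadjusted p below 0.05, and 59 of 86 slopes were negative, with a median of -0.014. Over all genes in that fit, 12.3% had an unadjusted p below 0.05 and 51.9% of slopes were negative.

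**Figure D5:**
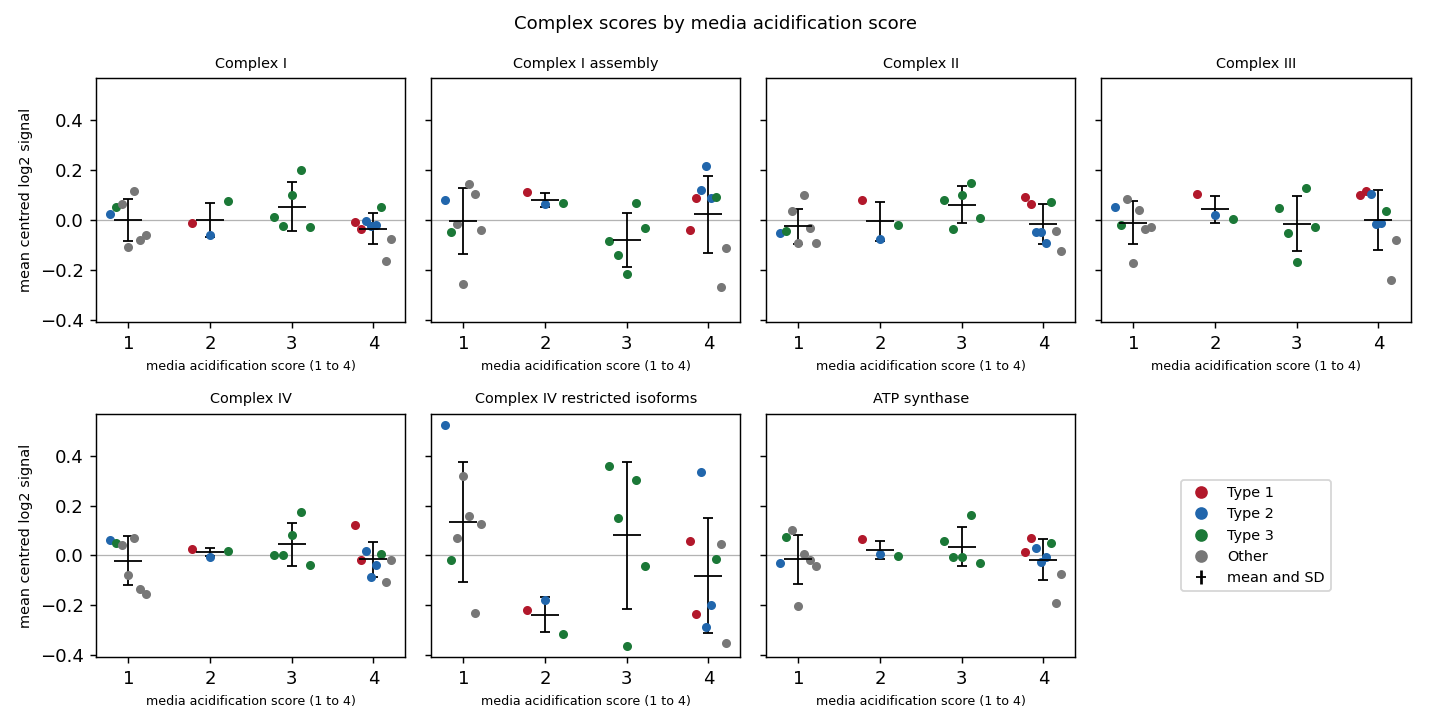
Complex scores (vertical axis, mean centred log2 signal) of each line by media acidification score (horizontal axis), coloured by group, with mean and SD at each score. The lines at scores 1 and 4 overlap in every complex.

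Neither the differentiation score nor the depot separated the members past the threshold. Along the differentiation score (2 to 4 in these lines), 0 of 86 passed in limma (0.0% of all genes tested did) and 3 had an unadjusted p below 0.05 (3.49%, beside 10.8% of all genes). These were Ndufb11, a membrane-arm subunit (0.11 ± 0.05 per point, adjusted p 0.405, limma), Sdha (0.08 ± 0.03, adjusted p 0.42, limma) and Ndufa13 (0.13 ± 0.06). In the other direction, Ndufaf3 and Cox5a each had a slope of -0.09 ± 0.05. Intervals of 79 of 86 slopes lay within ±0.2 log2 per point, a bound that is wide beside the members' median span of 0.64. Between PGF and SCF lines, with group in the model, 0 of 86 passed (0.0% of all genes tested did) and 2 had an unadjusted p below 0.05 (2.33%, beside 8.4% of all genes). Uqcrfs1, the Rieske iron-sulfur protein of Complex III, differed by 0.18 ± 0.06 (adjusted p 0.524, limma) and Sdhc by -0.15 ± 0.06 (adjusted p 0.526, limma). Cox5a (0.17 ± 0.09) and Ndufa13 (-0.16 ± 0.08) followed. With Type 1 all PGF, this contrast rests on the other groups.

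Some genes of energy metabolism outside the chain differed in Type 1 by more than any member that passed. Ppargc1b, a coactivator of mitochondrial biogenesis, was 8.53 to 8.68 in Type 1 and 4.79 to 5.94 in the other lines (difference 3.08 ± 0.17, adjusted p 6.69e-12, limma), while Tfam and Polg, which maintain mitochondrial DNA, rose by 0.49 and 0.45. These were the 3 of 16 biogenesis regulators that passed. The counts of this and the following lists stand beside 18.2% of all genes tested higher in Type 1 and 14.6% lower. Of 20 genes of glycolysis and lactate handling, 5 rose and 4 fell, led by Pdk4 (-2.58), which restrains pyruvate oxidation, Aldoc (2.53) and Pfkfb3 (1.45). Of 17 TCA cycle and pyruvate entry genes, 5 rose, among them Mpc1 (0.85), Idh3a (0.61) and Pdhb (0.49), and 3 fell. Of 76 mitochondrial ribosomal genes, 11 rose, such as Mrpl38 (0.67) and Mrpl1 (0.57), and 2 fell, with Mrps6 at -2.33. Of 34 electron carriers and assembly factors outside the symbol rule, 5 rose and 3 fell, including Tmem70 (0.55), Cox20 (-0.52) and Cox11 (0.46).

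Of 6 genes of uncoupling, ADP/ATP exchange and peroxide removal, 0 rose and 1 fell, Prdx3 (-0.49). Of 13 hypoxia targets, 2 rose and 4 fell, with Adm at -5.09, Egln3 at 2.66 and Ndrg1 at 1.90. Of 7 genes of proton and bicarbonate transport, 3 rose and 1 fell, led by the carbonic anhydrases Car12 (2.27), Car2 (1.38) and Car13 (-0.84). Of 4 tested brown and beige fat genes, Cox7a1 rose and Tmem26 fell (-1.70). In the Other comparison Ppargc1b, Lrpprc, Mrpl15, Hk1, Adm and Car13 passed, and without the 3 Type 1 lines none of these 6 did (adjusted p 0.362 to 0.835, limma). Type 2 against Type 3, and the acidification slope, gave 0 calls in each of these lists (limma). Of 20 glycolysis genes, 15 had a negative acidification slope, with a median of -0.075 per point, beside 51.1% of all genes with a negative slope, and 3 had an unadjusted p below 0.05.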

How the data were processed

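Expression was measured on 23 biotin-labelled arrays, 1 per clonal line, with 250 ng of total RNA each, per the labels. The table as deposited appears to be log2 signal (2.03 to 14.46), judged from its range since no header names a scale. MAS5 is the software in the submitters' processing notes, which do not say how arrays were scaled. Array medians were 5.089 to 5.162, and array pairs correlated at 0.937 to 0.992, with 0 identical pairs.

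Of 45101 probe sets, 64 controls and those without a single symbol were left out, which gave 34945 probe sets and 18193 genes. Symbols came from the platform annotation, and RefSeq (GRCm38.p6) changed 0 of them and left 204 probe sets unmatched. The members have 179 probe sets, 51 members having several, and 10 probe sets with several symbols were not used. Testing was limited to the 12307 genes whose signal exceeded the table median in 3 or more lines.

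The fits used limma 3.58.1 under R 4.3.3, through lmFit and eBayes, over all 23 lines, checked on simulated data, with Benjamini-Hochberg adjustment and a threshold of 0.05. Slopes used each score as a number. An offset of 16 added on the linear scale, array centring, quantile normalization, array weights, other probe set rules, no filter, depot, the number in the clone name, group in the model and leaving out lines were the alternatives. The members and gene lists were chosen with earlier results of these data known. Named were up to 10 passing members per direction and comparison, otherwise the 2 smallest p-values per direction, the isoforms, Complex II, the member with the highest mean per complex and up to 3 passing genes per list. The number of arrays limits the precision.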

Additional observations from a re-analysis of the deposited data

Results flagged for a closer look

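Of 162 groups of 4 to 10 lines examined for 54 genes and scores, 17 held a line far from the others of its group, where chance alone gives about 1 in 20 groups. No cause was tested for any of them.

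In Type 3, line 4 was apart in Cox5a (11.81, the other lines 12.12 to 12.39), Ndufa13 (12.42, the others 11.93 to 12.14) and Ndufaf3 (8.04, the others 8.36 to 8.61). Type 3 line 2 was high in Cox7a1 (5.28, the others 3.77 to 4.45) and Cox8b (4.97, the others 4.46 to 4.70). Type 3 line 3 was low in Ndufaf7 (7.60, the others 7.73 to 7.84). Type 3 line 5 was high in the score over all members (0.175, the others -0.030 to 0.045).

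In Type 2, line 5 was high in Atp5pb (12.36, the others 12.04 to 12.13), Cox6b1 (12.58, the others 12.43 to 12.47) and Sdha (10.61, the others 10.35 to 10.40), and low in Cox8c (6.97, the others 7.41 to 7.54). Type 2 line 3 was high in Atp5g3 (13.03, the others 12.96 to 12.98).

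Among the Other lines, line 7 was high in Atp5pb (12.40, the others 11.82 to 12.07) and Cox7a1 (5.59, the others 3.89 to 4.56). Line 6 was high in Cox8b (4.90, the others 4.50 to 4.64), line 3 in Ndufaf8 (9.56, the others 9.24 to 9.36), and line 5 was low in Sdhc (9.01, the others 9.30 to 9.45).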

How the results depend on the processing

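No paired analysis was possible because replicate numbers only name lines in the order of deposition. With array weights, 49 members and 7073 genes passed in the Type 1 comparison (18 and 4042 without weights), 4 and 1037 in Type 2 against Type 3 (0 and 47), and 3 members in the Other comparison (0); the weights stopped before convergence in 4 of 6 fits. Leaving out 1 line gave 7 to 19 members and 2708 to 4267 genes for Type 1, 0 members and 0 to 195 genes for Type 2 against Type 3, and 0 to 2 members and 455 to 1267 genes for Other (705 with all lines). The fewest Type 1 members (7) came without Type 1 line 3, the 2 Other members without Other line 7, and 1 Other member each without Other lines 3 and 5 and Type 3 line 4. Type 2 against Type 3 gave 1 member and 565 genes over 16 lines, 5 genes with the clone-name number, 133 with depot, 7 with mean probe sets and 9 with no filter. Other gave 1 member each with mean probe sets (Ndufv2) and with quantile normalization (Atp5pb), and 1 gene without the Type 1 lines. The acidification, differentiation and depot comparisons gave 0 members and 0 genes past the threshold in limma under every setting run. In other probe sets, chosen after seeing the data, Ndufc2 (-0.249), Ndufb2 (0.038) and Ndufa3 (0.228) reversed, and with depot in the model Sdhc in Type 1 (0.003) did. Scores per complex moved by less than 1 SD in all 864 values recomputed. The causes were not tested.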
